A study of Homo sapiens with 18 samples.

Results

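Solute carriers (SLC genes) form a large superfamily of membrane transporters, and they carry amino acids, sugars, ions, metals, nucleotides and vitamins across the plasma membrane and the membranes of organelles. Many of them work in pairs with a pump, a chaperone or a second carrier, since the sodium gradient drives uptake and a heavy chain or an immunoglobulin-like chaperone brings some of them to the cell surface. Mammary epithelium is known for taking up amino acids, glucose, zinc and phosphate to make milk.

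The genes described here were selected on their names and their levels, as all genes with an SLC or SLCO symbol, names with -AS or -OT or ending in P plus a number left out, whose mean normalized count was at least 100 in the RUNX1 KO1 table. These were 185 of the 327 SLC names listed there, and 142 names lay under 100. The antisense gene SLC22A18AS and the pseudogene SLC6A10P, whose names this rule lets through, are among the 142. The same Entrez IDs were followed in the CBFB KO and RUNX1 KO2 tables, which listed all 185, with 3 of them under 100 in the CBFB table and 5 under 100 in the KO2 table. Besides the heavy chains and the enzyme SLC27A5 described further on, the name rule took in at least 5 genes that are not transporters. SLC9A3R1 and SLC9A3R2 are scaffold proteins that bind transporters, SLC2A4RG is a transcription factor, SLC4A1AP is a protein named for binding to SLC4A1 and SLC7A6OS is a gene on the strand opposite to SLC7A6.

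RNA was sequenced from MCF10A, an immortalized non-tumorigenic human mammary epithelial cell line, in 18 samples of 5 groups. CBFB KO and its WT had 3 samples each, and RUNX1 KO1, RUNX1 KO2 and their WT had 4 samples each. Each knockout was made by CRISPR-Cas9 and grown from single-cell colonies, 1 clone for CBFB and 1 each for RUNX1 KO1 and KO2, so clone and knockout cannot be told apart. No treatment is given in the labels, and cells of every group grew in medium with horse serum, EGF, insulin, hydrocortisone and cholera toxin. CBFB is the partner subunit that stabilizes the RUNX transcription factors on DNA.

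The value used is the authors' mean of normalized counts for a gene over the knockout and the WT libraries of a table together, called the table mean below. It is a level of the cells as a whole and not a difference between knockout and WT. It comes without a value per library or an SD, so no test was run and every ratio below is a description. In such bulk RNA, fewer cells of a kind and less RNA per cell cannot be told apart. The KO1 and KO2 tables share their 4 WT libraries, which was checked on 265 genes with 1 read in 1 library, whose values matched between the tables library by library. The CBFB and RUNX1 tables share no library, so the knockout and the experiment cannot be told apart in any ratio between them.

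The tables listed 18526 (CBFB), 18517 (KO1) and 18117 (KO2) genes, and the means summed to 20214400, 18050400 and 16467400 normalized counts. Library size factors, read from genes with a single read, spanned 0.657 to 1.18 for the CBFB libraries, 0.921 to 1.101 for those of KO1 and 0.562 to 1.29 for those of KO2. The 9 epithelial markers ran from TP63, with table means of 730 to 1606, up to KRT5, with 87894 to 101688, while the blood, endothelial and liver markers PTPRC, CD3E, PECAM1, CDH5 and ALB were at 0.870 or lower or not listed. The epithelial markers differed between the tables, with KRT17 at 10526 (CBFB), 47912 (KO1) and 68408 (KO2), KRT8 at 6334, 8895 and 11418, and KRT14 at 4112 and 9515 and not listed in the KO2 table. KRT5 and CDH1 also had their lowest mean in the CBFB table. ITGA6 went the other way, at 22347 (CBFB), 12515 (KO1) and 9288 (KO2). So did TP63, at 1606, 953 and 730, and EPCAM, at 2981, 2249 and 2131. KRT18 had its lowest mean in the KO1 table. The part of these markers in the ratios below was not tested. Of the mesenchymal markers, COL1A1 had table means of 236 to 305, PDGFRB of 3.30 to 3.42, and COL1A2 was at 0.145 or not listed. The estrogen receptor gene ESR1, also on the list of markers of other cells, had 77.6 (CBFB), 59.9 (KO1) and 53.9 (KO2). CBFB had table means of 897 (CBFB), 1058 (KO1) and 931 (KO2), and RUNX1 had 1606, 922 and 839, but a mean over knockout and WT does not check which library is the knockout.

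The SLC genes held 1.57% (CBFB), 1.47% (KO1) and 1.55% (KO2) of the summed table means. Of the 185 genes, 56 had a KO1 table mean of at least 1000 and 76 were under 500. The 10 genes with the highest KO1 table means took 45.1% of the sum over all 185, and SLC7A5 alone took 14.9%. The lowest member stood for about 804 reads, for which counting error alone gives a 95% Poisson interval of 93.2% to 107% of the mean. Just above the threshold lay SLC16A5 with a KO1 table mean of 101 and SLC16A13 with 104, and just below it SLC26A11 with 99.3 and SLC35F3 with 98.9.

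The classes differed in how many of their names passed the threshold. Of the mitochondrial carriers (SLC25), 35 of 45 listed names passed, of the nucleotide sugar transporters (SLC35) 23 of 30, and of the metal transporters 22 of 29. Of the names in the class of organic ions and peptides 11 of 46 passed, and of those in the SLC22 family, whose best known members work in kidney and liver, 3 of 15 passed, with SLC22A18AS counted in both. Of the names in the amino acid class, SLC7A6OS and SLC6A10P included, 24 of 49 passed, and of those in the inorganic ion class, SLC4A1AP included, 23 of 52.

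Per kilobase of the longest annotated transcript, which puts genes of different length on 1 scale, the median level in the KO1 table was 224 for mitochondrial carriers, 197 for metal transporters, 140 for sugar transporters, 132 for amino acid transporters and 54.3 for monocarboxylate transporters. The mitochondrial carriers took 33.0% of the summed levels per kilobase of the 185 genes and the amino acid transporters 28.4%. On the scale of table means the order was the reverse, with 33.1% for amino acid transporters and 24.0% for mitochondrial carriers.

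**Figure D1:**
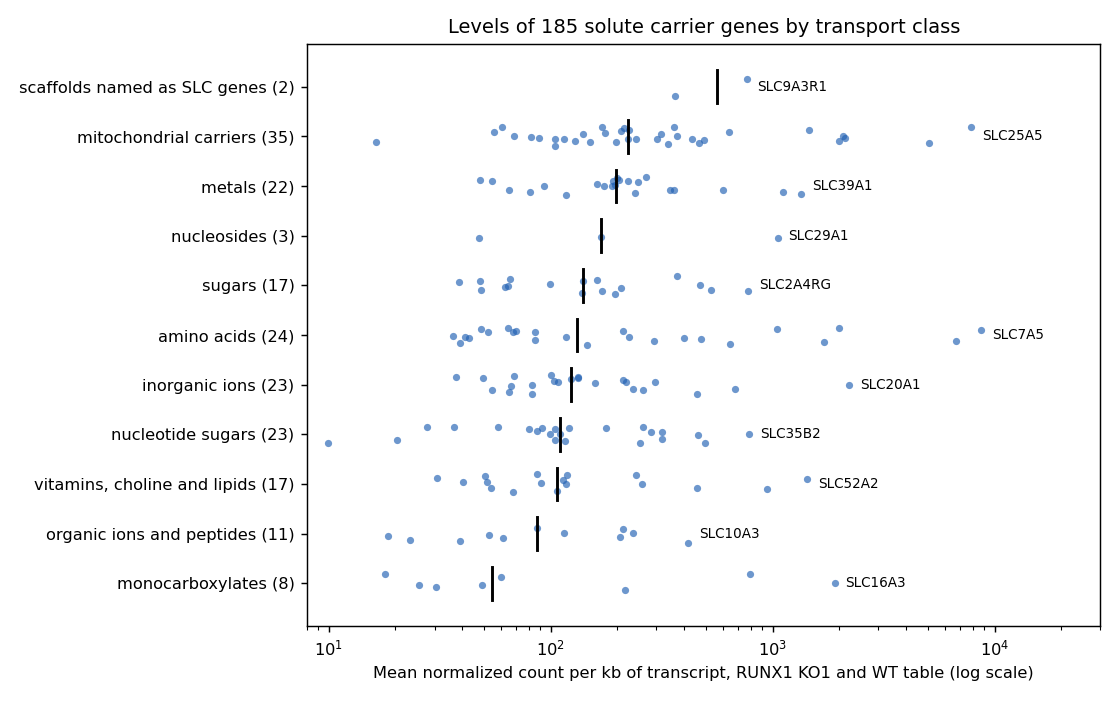
Level of each of the 185 genes in the RUNX1 KO1 and WT table as the mean normalized count per kilobase of the longest annotated transcript (horizontal, log scale), by transport class with the number of genes in parentheses. Each point is 1 gene, the black bar is the class median, and the gene with the highest level per kilobase in each class is named. The monocarboxylate class has the lowest median (54.3) although its highest gene, SLC16A3, is at 1902.

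The most abundant pair was the light and heavy chain of a large neutral amino acid exchanger. SLC7A5 (LAT1, Entrez ID 8140) exchanges leucine and other large neutral amino acids, and its table means were 50476 (CBFB), 39417 (KO1) and 37413 (KO2). SLC3A2 (Entrez ID 6520), the CD98 heavy chain that carries SLC7A5 to the surface, had table means of 13759, 14848 and 15581. Before any centring, the light chain was thus highest in the CBFB table and the heavy chain highest in the KO2 table. In the centred log2 ratios described further on, SLC7A5 was at only 0.13 for CBFB over KO1 and 0.09 for CBFB over KO2. Per kilobase SLC7A5 and SLC3A2 ranked 1 and 3 of the 185 genes in the KO1 table, at 8688 and 6682. The ADP/ATP carrier SLC25A5 lay between them at 7822.

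The promoter of SLC7A5 is shown because it belongs to the most abundant gene, and one of SLC1A3 because that gene was among the 4 with the largest ratios described further on. Both were chosen after the values were seen. Each window runs from 250 bases before to 50 after an annotated start in RefSeq GRCh38.p14, written 5′ to 3′ on the strand of the gene. In SLC7A5 (chr16:87869458-87869757, minus strand) capitals mark a match to the NRF2 motif, and in SLC1A3 (chr5:36606704-36607003, plus strand, 1 of 3 annotated windows) they mark a match to the RUNX motif. The other SLC1A3 windows hold an ATF4 match in one and an NRF2 match in the other.
SLC7A5: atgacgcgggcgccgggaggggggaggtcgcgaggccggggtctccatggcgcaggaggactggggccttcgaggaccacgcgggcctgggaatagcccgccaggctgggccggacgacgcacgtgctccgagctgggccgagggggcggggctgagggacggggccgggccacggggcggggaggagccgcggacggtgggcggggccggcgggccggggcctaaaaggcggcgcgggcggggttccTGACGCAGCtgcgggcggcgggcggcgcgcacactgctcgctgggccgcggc
SLC1A3: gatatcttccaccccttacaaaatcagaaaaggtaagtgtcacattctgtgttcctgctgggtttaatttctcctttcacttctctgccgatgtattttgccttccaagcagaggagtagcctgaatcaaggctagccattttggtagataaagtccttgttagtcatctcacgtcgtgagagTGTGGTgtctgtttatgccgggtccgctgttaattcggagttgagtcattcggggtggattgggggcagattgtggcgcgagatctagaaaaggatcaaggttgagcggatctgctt
The letters searched on both strands were TGTGGT for RUNX, TGATGCAA for ATF4 and TGACNNNGC for NRF2, each counted on its own whether or not it overlapped another. Windows were found for 150 of the 185 genes, 224 in all. The RUNX letters stood in 9.38% of these windows and in 13.1% of all 35097 promoter windows, those of ATF4 in 0.893% and 0.866%, and those of NRF2 in 16.5% and 13.3%. A match is a string of letters and not a site of binding.

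Among the other abundant genes, the mitochondrial phosphate carrier SLC25A3 had table means of 12140 (CBFB), 12618 (KO1) and 13338 (KO2). The ADP/ATP carrier SLC25A6 had table means of 10329, 10444 and 11009. SLC25A5, another ADP/ATP carrier, had 10847, 9965 and 9676. In the centred ratios described further on, CBFB over KO2 was -0.48 for SLC25A3, -0.44 for SLC25A6 and -0.18 for SLC25A5 on the log2 scale. RefSeq names 9 pseudogenes of SLC25A5, 6 of SLC25A6 and 3 of SLC25A3, whose reads the authors' counting could have split, so these levels are uncertain.

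At the plasma membrane, SLC16A3 (MCT4), which exports lactate, had table means of 8347, 9185 and 9459. The sodium-phosphate cotransporter SLC20A1 had 10963, 7473 and 7104, and SLC43A3 had 6207, 5243 and 4977. SLC38A1 and SLC38A2, sodium-coupled carriers of small neutral amino acids, had table means of 9489, 5189 and 4402 and of 10040, 5122 and 4562. Before any centring, both SLC38 genes, SLC20A1 and SLC43A3 had their highest mean in the CBFB table. The centred log2 ratios described further on, over KO1 and KO2, were 0.65 and 0.76 for SLC38A1 and 0.75 and 0.79 for SLC38A2. They were 0.33 and 0.28 for SLC20A1 and 0.02 and -0.03 for SLC43A3. After the trend on GC content and length described further on was taken off, SLC38A1 was at 0.25 and 0.27 and SLC38A2 at 0.45 and 0.45.

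The genes with the highest table mean in the remaining classes were SLC39A1, SLC44A2, SLC29A1, SLC35A4, SLC2A1, SLC9A3R1 and SLC22A5. SLC44A2, a choline transporter-like protein, had table means of 3020 (CBFB), 3574 (KO1) and 3768 (KO2). The nucleoside transporter SLC29A1 (ENT1) had 3268, 2450 and 2089. SLC35A4, of the nucleotide sugar family, had 1981, 1792 and 1670, and the carnitine transporter SLC22A5 had 1080, 1199 and 1188. SLC9A3R1 had 1310, 1506 and 1549, and SLC9A3R2, its relative, had 712, 794 and 954. Before any centring, SLC29A1 was thus lower in both RUNX1 tables than in the CBFB table, and the scaffolds were higher. In the centred log2 ratios described further on, SLC29A1 was at only 0.19 for CBFB over KO1 and 0.30 for CBFB over KO2. Both values lie inside the limit set there. SLC9A3R1 was at -0.42 and -0.59, and SLC9A3R2 at -0.38 and -0.77. The nucleoside transporters SLC29A2 (-0.35 and -0.53) and SLC29A3 (-0.60 and -0.85) went the other way from SLC29A1. These values changed when the trend on GC content and length described further on was taken off. SLC29A1 was then at 0.42 and 0.66 and SLC29A3 at -0.37 and -0.49, both past the limit. SLC9A3R1 (-0.08 and -0.09), SLC9A3R2 (0.05 and -0.23) and SLC29A2 (-0.07 and -0.12) were within it.

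To compare tables, the ratio of a gene's table means was taken on the log2 scale and centred on the median of all genes with a KO1 table mean of at least 100. The centring removed 0.11 (KO1 over KO2), 0.22 (CBFB over KO1) and 0.34 (CBFB over KO2) on the log2 scale. A gene was counted as higher in the first table of a pair where its centred mean there was at least 25% above that of the second, and as lower where the mean of the second was at least 25% above that of the first. Since KO1 and KO2 share their WT libraries, and the 2 CBFB ratios share the CBFB table, the 3 sets of ratios are not independent of each other.

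KO1 and KO2, whose table means share 4 WT libraries, differed little. Their centred log2 ratios ran from -0.47 to 0.28 over the 185 genes, with an SD of 0.14 across the genes, against 0.16 across all 10345 genes compared. By this limit of 25%, no SLC gene was higher in the KO1 table, where 0.551% of all genes were. Lower in the KO1 table were 5 genes, or 2.70%, where 5.42% of all genes were. Without centring, 4 SLC genes were higher and 1 was lower, and the share of all genes at that setting is not given here.

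These 5 genes were SLC27A5, SLC39A4, SLC25A35, SLC9A3R2 and SLC25A10. SLC27A5, an enzyme that activates bile acids and long-chain fatty acids in liver, had table means of 203 (KO1) and 261 (KO2), a log2 ratio of -0.47. SLC39A4, a zinc importer best known from the intestine, had 688 and 850 (-0.41). SLC25A35, a mitochondrial carrier, had 598 and 727 (-0.39), SLC9A3R2 had a log2 ratio of -0.37, and the dicarboxylate carrier SLC25A10 had 3871 and 4622 (-0.36). Their transcripts had GC contents of 53.6% to 67.4%, with a median of 59.3% against 50.4% in the 180 other members. With the trend on GC content and length described further on taken off, SLC27A5 (-0.46) and, barely, SLC39A4 (-0.32) were past the limit, and SLC25A35 (-0.27), SLC9A3R2 (-0.21) and SLC25A10 (-0.19) were not.

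At the other end, the bicarbonate cotransporter SLC4A7 had table means of 530 (KO1) and 405 (KO2), a log2 ratio of 0.28. SLC41A2, a magnesium transporter, had 290 and 222 (0.28). The lysosomal transporters SLC46A3 and SLC38A7 had log2 ratios of 0.27 and 0.24, and the mitochondrial ATP-magnesium/phosphate carrier SLC25A24 had 0.21. None of these reached the limit of 25%.

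Because the WT part of both means is the same, a ratio of table means is smaller than the ratio between the clones themselves. With the shared WT libraries set to 1 scale, the KO2 clone had at least about 1.36 times the SLC27A5 level of the KO1 clone and 1.31 times that of SLC39A4. The KO1 clone had at least about 1.24 times the SLC4A7 level of the KO2 clone. These limits are approximate, as the scale between the tables ranged from 1.054 to 1.071 over the 4 shared libraries, and the spread between libraries was not analysed here.

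**Figure D2:**
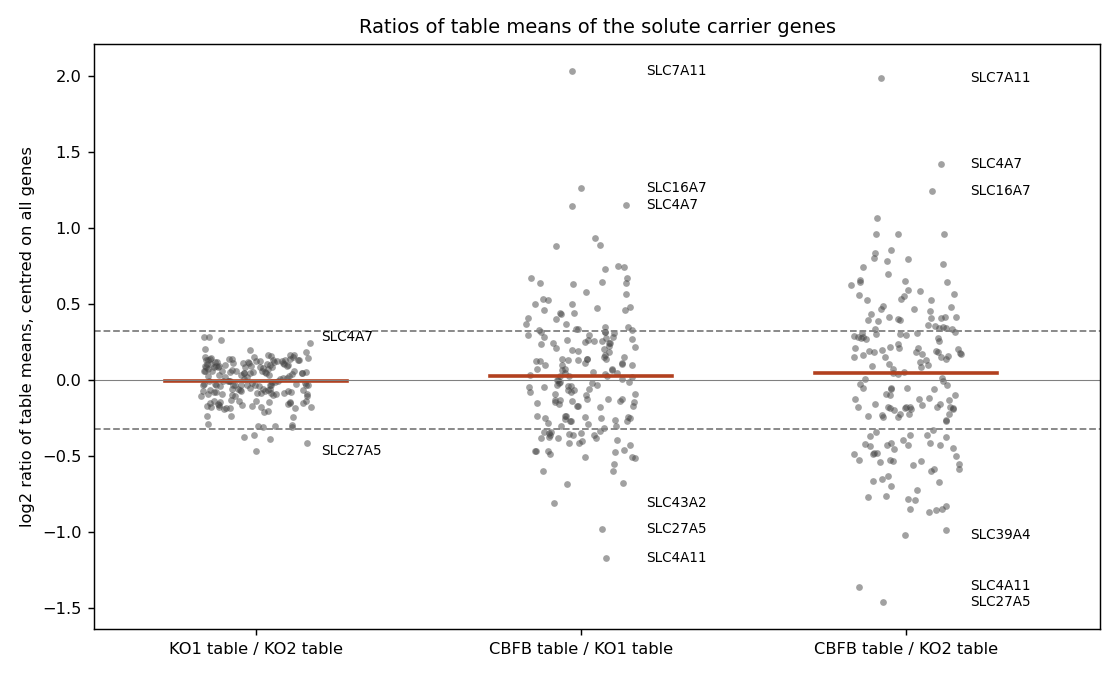
Centred log2 ratios of table means for the 185 genes (vertical) in the 3 pairs of tables. Each point is 1 gene, the red bar is the median, dashed lines mark a mean 25% above that of the other table, and the most extreme genes are named beside their height. The KO1 over KO2 ratios, whose tables share their WT libraries, stay between -0.47 and 0.28, and the CBFB ratios spread from -1.46 to 2.03.

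The CBFB table, which shares no library with the RUNX1 tables, lay further from both of them. Part of this is built in, since the shared WT libraries draw the KO1 and KO2 means together. How large that part is was not tested. Over KO1, 39 SLC genes (21.1%) were higher in the CBFB table by the limit of 25%, where 20.1% of all 10681 genes were, and 35 (18.9%) were lower, where 17.2% were. Over KO2, 50 (27.0%) were higher, where 25.3% of all 10328 genes were, and 50 (27.0%) were lower, where 25.9% were. These shares, with the trend on GC content and length described further on left in, lie near those of all genes. After that trend was taken off, 26 of the 185 were higher over KO1, where 10.1% of all genes were, and 22 lower, where 12.7% were. Over KO2, 36 were higher, where 14.6% of all genes were, and 34 lower, where 18.6% were. Without centring, 80 were higher and 8 lower over KO1, and 97 higher and 16 lower over KO2, so the balance of directions rests on the centring. Shares of all genes without centring are not given here. The median log2 ratio of the 185 genes was 0.03 over KO1 and 0.04 over KO2, beside 0 over all genes.

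The largest ratio was that of SLC7A11 (xCT, Entrez ID 23657), the cystine/glutamate exchanger that supplies cysteine for glutathione. Its table means were 1806 (CBFB), 378 (KO1) and 359 (KO2), which is 4.10 times higher over KO1 and 3.97 times higher over KO2 after centring. With the trend on GC content and length described further on taken off, its log2 ratios were 1.44 and 1.27 in place of 2.03 and 1.99. SLC16A7 (MCT2), a monocarboxylate transporter with high affinity for its substrates, had table means of 590, 210 and 196, with log2 ratios of 1.26 over KO1 and 1.245 over KO2.

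SLC4A7 had table means of 1372, 530 and 405, with log2 ratios of 1.15 over KO1 and 1.42 over KO2. SLC1A3 (EAAT1), a sodium-driven glutamate transporter best known from astrocytes, had 1265, 490 and 476, with log2 ratios of 1.14 and 1.06. For each of these 4 genes the CBFB mean was over 2 times that of either RUNX1 table. The taurine transporter SLC6A6 followed with 1242, 558 and 502, at 0.93 and 0.96.

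Among the genes with lower means in the CBFB table, SLC4A11, a membrane transporter known from corneal endothelium, had 91.6 (CBFB), 176 (KO1) and 185 (KO2), with log2 ratios of -1.17 and -1.36. Its mean in either RUNX1 table was over 2 times that in the CBFB table after centring. SLC27A5 had 120, 203 and 261, with log2 ratios of -0.98 and -1.46. SLC43A2 (LAT4), which carries branched-chain amino acids and phenylalanine, had 223, 335 and 317, with log2 ratios of -0.81 and -0.85.

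SLC25A29, a mitochondrial carrier of basic amino acids, had table means of 227 (CBFB), 312 (KO1) and 353 (KO2), with log2 ratios of -0.68 and -0.99. SLC31A2, a relative of the copper importer, had 313, 427 and 406, at -0.67 and -0.72. SLC39A4 had 532, 688 and 850, at -0.59 and -1.02, and the zinc importer SLC39A3 had 441, 555 and 636, at -0.55 and -0.87.

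The threshold was read in the KO1 table alone, so genes that are low there and higher in the CBFB table are not among the 185. SLC18A2, for example, a vesicular monoamine transporter named after its values were seen, had table means of 184 (CBFB), 85.8 (KO1) and 82.5 (KO2).

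GC content and length moved with these ratios. Over KO1, the members higher in the CBFB table had a median transcript GC content of 41.0% and a median length of 5809 bases, and those lower had 58.4% and 2785 bases. Across the 185 genes the Spearman correlation of the log2 ratio with GC content was -0.53 for KO1 over KO2, -0.63 for CBFB over KO1 and -0.65 for CBFB over KO2, with -0.44, -0.50 and -0.50 across all genes. Genes are not independent replicates and share their libraries, so these are descriptions without a test. SLC7A11, at 35.4% GC, and SLC16A7, at 33.3%, lie at the low end, while SLC4A11 has 59.2%.

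When a trend on GC content and length fitted over all genes was taken off, SLC7A11 came down to log2 ratios of 1.44 over KO1 and 1.27 over KO2. SLC1A3 was then at 1.01 and 0.92, SLC4A11 at -0.98 and -1.07 and SLC27A5 at -1.01 and -1.45. SLC16A7 came down to 0.53 and 0.38 and SLC4A7 to 0.67 and 0.84. Whether base composition has a part in the ratios was not tested.

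**Figure D3:**
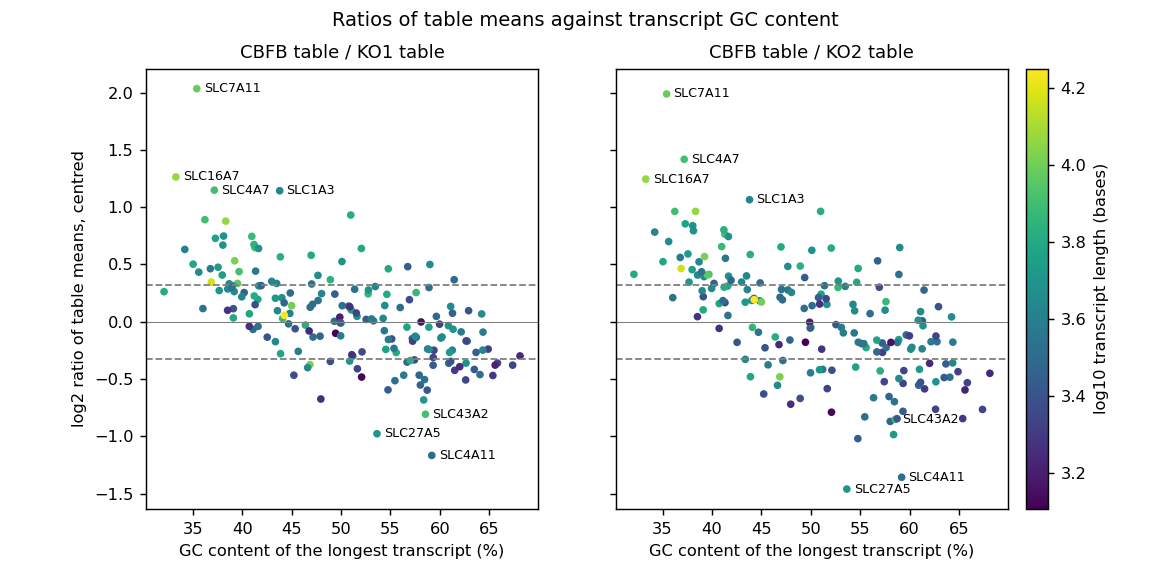
Centred log2 ratio of table means (vertical) against the GC content of the longest annotated transcript in percent (horizontal) for the 185 genes, with CBFB over KO1 on the left and CBFB over KO2 on the right. Color gives the log10 of transcript length in bases, dashed lines mark the limit of 25%, and the points slope downward, with Spearman correlations of -0.63 and -0.65.

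Among the light chains and their relatives, 8 genes of the SLC3 and SLC7 families were members. SLC7A1, which imports arginine and lysine, had table means of 4058 (CBFB), 2937 (KO1) and 2599 (KO2), and SLC7A6, another partner of SLC3A2, had 2345, 1344 and 1175. SLC7A2, a second arginine and lysine transporter, had 544, 278 and 272, and SLC3A1, the heavy chain known from kidney, had 186, 128 and 114. All of these were highest in the CBFB table, with log2 ratios over KO1 of 0.24, 0.58, 0.74 and 0.32.

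SLC7A6OS had table means of 492, 356 and 325 and a log2 ratio of 0.25 over KO1. The sources used here do not state whether the counting used strand, so its reads and those of SLC7A6 may not be told apart. SLC3A2 was the exception among the 8, with a log2 ratio of -0.33 over KO1 and -0.52 over KO2. With the trend on GC content and length taken off, SLC3A2 was at -0.08 and -0.14, within the limit of 25%. Of the SLC7 names, SLC7A6OS included, 3 of 6 were higher over KO1 by the limit of 25% and none was lower, beside 20.1% and 17.2% of all genes.

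The monocarboxylate transporters numbered 8 of 13 listed names. SLC16A1 (MCT1), the main lactate and pyruvate carrier of many cells, had table means of 5115 (CBFB), 3475 (KO1) and 3054 (KO2). Per kilobase SLC16A3 was at 1728, 1902 and 1958 and SLC16A1 at 1169, 794 and 698, so the 2 lactate carriers lay closer together in the CBFB table. The log2 ratios over KO1 were 0.33 for SLC16A1 and -0.36 for SLC16A3. Once the trend on GC content and length was taken off, they were 0.18 and -0.24, both within the limit. Over KO2, SLC16A1 was then at 0.23, within the limit, and SLC16A3 at -0.34, still past it.

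Of the lower genes of the family, 4 had KO1 table means from 101 to 135. SLC16A14 had 139 (CBFB), 135 (KO1) and 138 (KO2), SLC16A9 had 133, 107 and 86.3, SLC16A13 had 92.6, 104 and 93.9, and SLC16A5 had 116, 101 and 99.2. The KO2 means of SLC16A9, SLC16A13 and SLC16A5 lay under 100.

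Of the facilitative sugar transporters, SLC2A1 (GLUT1), the widespread glucose carrier, had table means of 1814 (CBFB), 1730 (KO1) and 1618 (KO2). SLC2A9, which carries urate, had 558, 453 and 382. SLC2A6 had 469, 553 and 516, SLC2A8, a glucose transporter of internal membranes, had 178, 217 and 238, and SLC2A11 had 129, 157 and 180. These last 3 had log2 ratios over KO1 of -0.46, -0.51 and -0.51, the members of the family past the limit of 25%. Of the 6 SLC2 names, SLC2A4RG included, 3 were thus lower and none higher, beside 17.2% and 20.1% of all genes. With the trend on GC content and length taken off, SLC2A6 was at -0.21, SLC2A8 at -0.17 and SLC2A11 at -0.39, so only SLC2A11 stayed past the limit. The transcription factor SLC2A4RG had 1279, 1348 and 1377, with a transcript GC content of 68.1%, the highest of all 185 genes.

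Zinc is moved out of the cytosol by SLC30 transporters and into it by SLC39 transporters. Members were 5 SLC30 and 11 SLC39 genes. The most abundant importers were SLC39A1 with table means of 3872 (CBFB), 3672 (KO1) and 3470 (KO2), SLC39A7 of the endoplasmic reticulum with 2830, 2691 and 2544, and SLC39A6 with 2399, 2113 and 1820. All stayed within the limit of 25% over KO1, with log2 ratios of -0.15, -0.15 and -0.04.

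SLC39A14, which also carries iron and manganese, had table means of 2477, 1603 and 1397 and a log2 ratio of 0.40 over KO1. SLC39A10 had 1422, 876 and 744 (0.48). SLC39A4 and SLC39A3 were lower, as given above. The others, SLC39A13, SLC39A9, SLC39A8 and SLC39A11, had log2 ratios over KO1 of -0.17, 0.20, 0.07 and -0.01, so 2 of 11 SLC39 genes were higher and 2 lower by the limit of 25%, beside 20.1% and 17.2% of all genes. After the trend on GC content and length was taken off, SLC39A14 (0.30) and SLC39A10 (0.14) were within the limit over KO1. SLC39A4 (-0.44) and SLC39A3 (-0.36) stayed past it.

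All 5 SLC30 genes had log2 ratios above 0 over KO1. SLC30A7, which loads zinc into the Golgi, had table means of 818 (CBFB), 378 (KO1) and 331 (KO2), at 0.89. SLC30A1, the exporter of the plasma membrane, had 688, 444 and 395, at 0.41. SLC30A6 with 840, 596 and 521 and SLC30A5 with 1596, 1176 and 1028 were at 0.27 and 0.22, and SLC30A9 was at 0.03. The SLC30 transcripts are low in G and C, from 36.2% in SLC30A7 to 39.95% in SLC30A5, and after the trend was taken off the ratios were 0.39 for SLC30A7, 0.07 for SLC30A1, -0.04 for SLC30A6, -0.00 for SLC30A5 and -0.32 for SLC30A9.

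**Figure D4:**
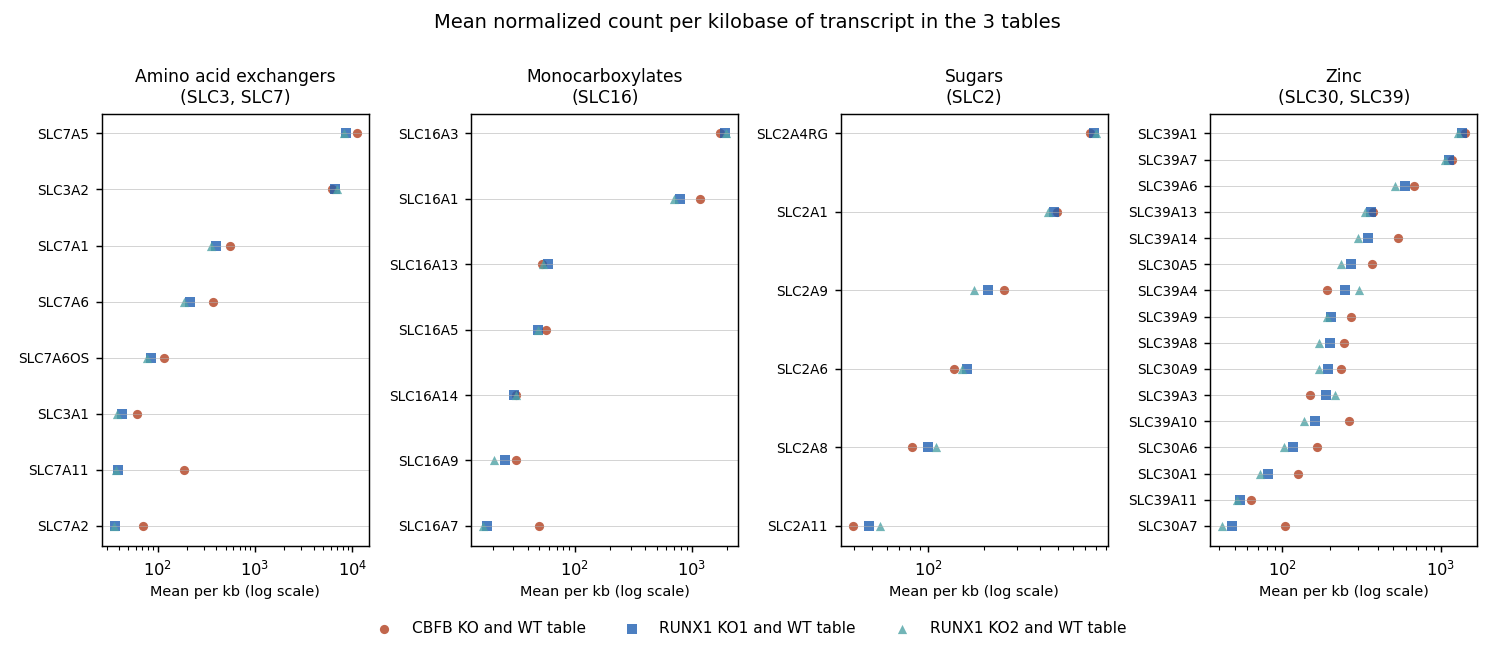
Mean normalized count per kilobase of the longest annotated transcript (horizontal, log scale) for members of the SLC3 and SLC7, SLC16, SLC2, and SLC30 and SLC39 families. Circles are the CBFB table, squares the RUNX1 KO1 table and triangles the RUNX1 KO2 table, without error bars since each is a single deposited mean. Squares and triangles, whose tables share their WT libraries, lie close together, and SLC7A11 (187 against 39.2 and 37.2), SLC16A7 and SLC30A7 stand out with a higher circle.

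The genes that carriers depend on were taken from a list of 16, and 13 of them reached a KO1 table mean of 100. The sodium-potassium pump, which keeps the gradient that drives sodium-coupled uptake, has accessory beta chains, of which ATP1B1 had table means of 1300 (CBFB), 791 (KO1) and 728 (KO2) and ATP1B3 had 4065, 4077 and 3929. ATP1B2 had means of 2.84 or lower in every table. The centred log2 ratios over KO1 were 0.49 for ATP1B1 and -0.23 for ATP1B3.

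Of the FXYD proteins, small regulators of the pump, FXYD3 had table means of 475 (CBFB), 1625 (KO1) and 2375 (KO2), and FXYD5 had 3681, 3499 and 3904. FXYD3 had the lowest ratios of the list, with log2 values of -2.00 over KO1 and -2.67 over KO2, and it was the one listed gene past the limit of 25% between KO1 and KO2 (-0.65). None of the 185 genes had ratios as low.

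The chaperones of the monocarboxylate transporters were BSG (basigin), with table means of 10972, 12471 and 12884, EMB (embigin), with 1915, 1265 and 1125, and NPTN, with 2024, 1565 and 1353. BSG, the partner of SLC16A1 and SLC16A3, had a log2 ratio of -0.41 over KO1 and EMB of 0.37. The mitochondrial pyruvate carrier subunits MPC1 and MPC2 had log2 ratios of -0.17 and -0.22, and the outer membrane porins VDAC1, VDAC2 and VDAC3 had 0.06, -0.09 and -0.14. With the trend on GC content and length left in, 2 of the 13 genes compared were higher and 2 lower over KO1, beside 20.1% and 17.2% of all genes. The median log2 ratio of the 13 was -0.14, beside 0 over all genes. Once the trend was taken off, BSG was at -0.08 and EMB at 0.10 over KO1, both within the limit. ATP1B1 (0.54) and FXYD3 (-1.73) stayed past it.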

How the data were processed

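The data were 3 tables, each comparing a knockout with WT, with 0 columns of per-sample values. Per the labels, reads were processed with Trimmomatic, STAR and DESeq2 on build hg19, versions not given. The labels name a TruSeq mRNA kit and the study's methods removal of ribosomal RNA. The signal used is the deposited mean of normalized counts over the knockout and WT libraries of each table. The other columns hold the authors' fold changes, SEs, test scores and p-values, and were not used. No test was run.

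Genes were joined by Entrez ID. Lengths and GC contents are those of each gene's longest transcript in GENCODE release 29, which can be longer than the transcript the cells make and lowers a level per kilobase, and names and promoters came from RefSeq GRCh38.p14. Builds differ, so no coordinates were joined to the tables. Of the symbols, 4 differ from RefSeq (SLC9A3R1, SLC9A3R2, SLC35E2, SLC35C2). Python 3.11.15 and pandas 2.3.3 were used, tested on simulated data.

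Members and lists were chosen with earlier results of these data known. Named were the 10 highest members, the 5 highest and 5 lowest ratios of each pair, the top of each class, the SLC2, SLC3, SLC7, SLC16, SLC30 and SLC39 families, SLC9A3R1 and SLC9A3R2, genes at the threshold, and all partner genes. Some genes that this rule names are not reported here. Motifs, promoters, the GC trend (1 form was tried) and the WT scaling were chosen after seeing the data.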

Additional observations from a re-analysis of the deposited data

How the results depend on the processing

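No paired analysis was possible because the tables hold means pooled over libraries, and for the same reason no library could be left out. The number of members was 200 with a threshold of 50, 160 with a threshold of 200, and 178 when a mean of 100 was asked in all 3 tables. Counts at the limit of 25% are given as higher and lower. Without centring, which removes up to 0.34 on the log2 scale, KO1 against KO2 gave 4 and 1, CBFB against KO1 gave 80 and 8, and CBFB against KO2 gave 97 and 16. With equal sums of means, the lower counts were 9 for KO1 against KO2 and 22 for CBFB against KO1. A ratio of 1.5 gave 0 lower for KO1 against KO2, 16 and 7 for CBFB against KO1, and 22 and 21 for CBFB against KO2. A ratio of 1.1 gave 18 and 39 for KO1 against KO2, 71 and 61 for CBFB against KO1, and 84 higher for CBFB against KO2. A minimum mean of 500, which leaves fewer genes, gave 23 and 18 for CBFB against KO1 and 31 and 28 for CBFB against KO2. With the trend on GC content and length removed, added after seeing the data, the lower counts were 2 for KO1 against KO2 and 22 for CBFB against KO1. Of all genes, 1.92% and 12.7% were lower with the trend removed. The higher counts at that setting were 26 for CBFB against KO1 and 36 for CBFB against KO2, where 10.1% and 14.6% of all genes were higher. Shares over all genes are not given for the other settings, so those counts cannot be read as particular to the SLC genes. For that trend and for equal sums, the cause was not tested. Of all values at changed settings, 24 stayed within 1.5 times the value given in the report, the member numbers and these 26 and 36 among them.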
